A study of Mus musculus with 6 samples.

Results

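The genes described here are 10 enzymes and subunits that write, hold or remove 2 repressive chromatin marks in mouse neural stem cells: Ezh1, Ezh2, Eed, Suz12 and Bmi1 of the Polycomb complexes, and Dnmt1, Uhrf1, Dnmt3a, Dnmt3b and Tet1 of the DNA methylation cycle. They were taken as a list of gene symbols, and every probe set that the platform's annotation gives to exactly 1 of them was read, which made 31 of 45037 non-control probe sets and 10 of 18193 annotated genes. The arrays measured total RNA of 6 independent neural stem cell lines, with an Affymetrix array for each line. Neural stem cells are precursors in the brain that keep dividing and can form neurons, astrocytes and oligodendrocytes. Lines labelled FoxO-null numbered 3 and lines labelled wild-type numbered 3. FoxO proteins are transcription factors held out of the nucleus when insulin or growth factors signal, and the comparison asks which transcripts differ when they are lost. Which FoxO genes are lost is not in the labels, nor is the means of deletion, nor the strain or age of the animals, and no further allele or treatment is named for either group. Each value is a MAS5 signal, a linear brightness that the authors scaled to a trimmed mean of 100 on each array.

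Polycomb repressive complex 2 (PRC2) places methyl groups on lysine 27 of histone H3. Its catalytic subunit is either Ezh2, the main form in dividing cells, or Ezh1, which is also used in resting cells, and neither works without Eed and Suz12. Bmi1 belongs to Polycomb repressive complex 1, which ubiquitinates histone H2A, and is known in neural stem cells for holding the Cdkn2a locus silent so that the cells keep dividing. Dnmt3a and Dnmt3b set new DNA methylation, while Dnmt1, led by Uhrf1 to freshly replicated DNA, copies it at each S phase, and Tet1 oxidises 5-methylcytosine on the way to its removal.

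Array medians lay between 25.5 and 32.8, and the 3' over 5' signal ratio of the actin control, a sign of RNA quality, was 1.05, 1.07 and 1.03 on FoxO-null 1 to 3 and 1.12, 1.09 and 1.12 on wild-type 1 to 3, lower on every array labelled FoxO-null. For the Gapdh control that ratio was 0.819, 0.833 and 0.789 on FoxO-null 1 to 3. It was 0.827, 0.829 and 0.928 on wild-type 1 to 3, so by this control the groups overlapped. The 18S rRNA 5' control read 211 on wild-type 1 and 23.5 to 38.9 on the others. The brightest of 27 bacterial control probe sets was taken as the background of an array. This background was 19.2, 27.6 and 26.9 on FoxO-null 1 to 3 and 14.4, 15.8 and 19.1 on wild-type 1 to 3. Background thus went with the group labels, as the actin ratio did and the Gapdh ratio did not. The part of RNA quality and background in the members' values was not tested. The Foxo probe sets went against the labels: 8 of 9 for Foxo1, Foxo3 and Foxo4 had a positive log2 difference, while 46.5% of all probe sets were negative, and 1 of the 8 lay at background on every array. In 5 all lines labelled FoxO-null lay above all labelled wild-type, and 6.95% of all probe sets did so. A Foxo3 probe set read 384, 422 and 454 in the lines labelled FoxO-null, against 207, 249.6 and 224 in the lines labelled wild-type. A Foxo4 probe set read 178, 57.2 and 190 in the lines labelled FoxO-null, against 5.56, 4.14 and 17.1, all at background, in the lines labelled wild-type. These are differences opposite to a loss of transcript, though a probe set that lies outside a deleted exon cannot check the deletion. The groups are therefore named by their labels, and each direction below follows them. Neural stem markers were present: 0 of 11 lay at background on all arrays.

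The most negative differences among the members were those of the genes that copy DNA methylation and of the PRC2 core subunits Eed and Suz12, which were lower in the lines labelled FoxO-null. Uhrf1, Dnmt1, Eed and Suz12 each had all 3 lines labelled FoxO-null below all 3 labelled wild-type. That was 4 of 10 members, against 7.96% of the 12665 genes tested. No member passed the test: 0 of 10 had a limma adjusted p under 0.05, where 0.0395% of all tested genes did. At an unadjusted limma p under 0.05, 4 of 10 were lower (4.94% of all genes) and 0 of 10 higher (5.26%), and 0 of 10 had groups apart with the lines labelled FoxO-null higher (8.08%). Of the members 7 of 10 had a negative log2 difference, compared with 48.3% of all genes, and the members' median was -0.17 where that of all tested genes was 0.0098. In cultures measured in bulk, fewer cells expressing a gene and less RNA per cell cannot be told apart.

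**Figure D1:**
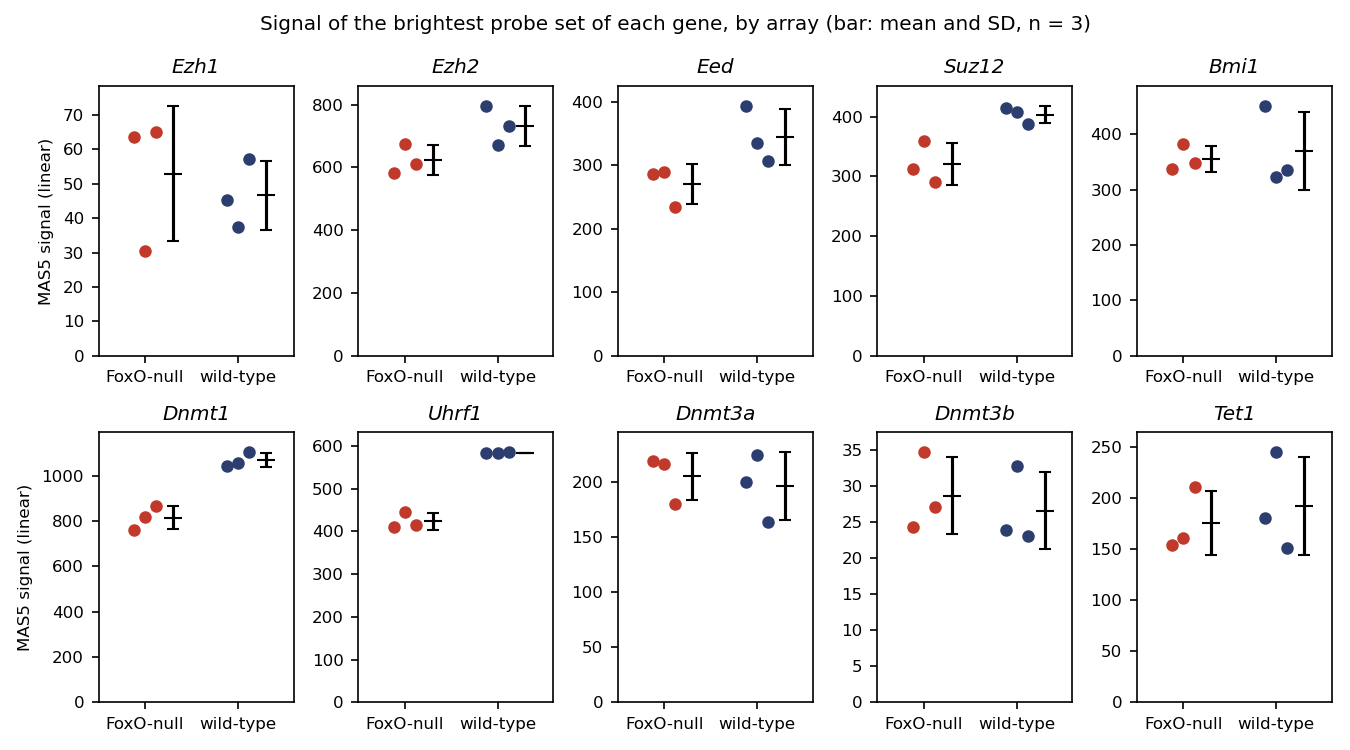
MAS5 signal (linear, each axis from 0) of the brightest probe set of the 10 genes on 3 arrays labelled FoxO-null (left in each panel) and 3 labelled wild-type (right); points are arrays and bars the mean and SD of 3. The groups are apart in Eed, Suz12, Dnmt1 and Uhrf1 and overlap in the other panels.

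Uhrf1 reads hemimethylated DNA behind the replication fork and brings Dnmt1 to it. Its brightest probe set (1415811_at) read 411, 446 and 414 on FoxO-null 1 to 3, against 583, 584 and 584 on wild-type 1 to 3. The lines labelled FoxO-null averaged 423 ± 19.5 and the lines labelled wild-type 584 ± 0.735 (SD, n = 3 each). The groups were far apart, with a difference of -0.46 ± 0.11 on the log2 scale (FoxO-null minus wild-type, with the SE of the fit; limma adjusted p 0.196), which is a ratio of 0.728. A second Uhrf1 probe set (1415810_at) read 384, 461 and 398 in the lines labelled FoxO-null, against 533, 665 and 467 in the lines labelled wild-type. It gave -0.41 ± 0.14 with groups again apart (limma adjusted p 0.552 over all probe sets). Its wild-type values were far more spread than those of the first, so the near-identity of the first set's wild-type values was not shared by the second.

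Dnmt1 is the maintenance methyltransferase. Its brightest probe set (1422946_a_at) read 763, 817 and 865 in the lines labelled FoxO-null, against 1043, 1057 and 1103 in the lines labelled wild-type. The lines labelled FoxO-null averaged 815 ± 51.2 and those labelled wild-type 1068 ± 31.1 (SD, n = 3 each), and the log2 fold change was -0.39 ± 0.10 (limma adjusted p 0.230). No line labelled FoxO-null reached the lowest wild-type value. Both other Dnmt1 probe sets were also negative, at -0.42 and -0.17, but there the groups overlapped. In rank of p among 12665 genes, Uhrf1 stood at 75 and Dnmt1 at 163.

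Promoter windows of the members are shown because the 4 genes that hold an E2F word are all among the members with negative differences. That choice rests on the outcome: 7 of 10 members were negative, among them Eed, Bmi1 and Tet1 without an E2F word. E2F factors switch on genes for DNA synthesis at the entry to S phase. The words searched, on both strands, were TTTCCCGC, TTTCGCGC, TTTGCCGC and TTTGGCGC, chosen with the members' values known. They were looked for from 250 bases before to 50 bases after each RefSeq start (build GRCm38.p6), and 2 words may overlap on opposite strands. They occurred in 2.26% of 32851 windows and at 1 or more starts of 2.6% of 27025 genes. Among the members they occurred in Ezh2, Suz12, Dnmt1 and Uhrf1, which is 4 of 15 windows. No word lay at starts 1 and 2 of Dnmt1 or at start 1 of Uhrf1. The 250 bases before the third annotated start of Dnmt1 (chr9:20952624-20952873, minus strand) and the second of Uhrf1 (chr17:56304063-56304312, plus strand) follow, with the words in capitals; which starts these lines use was not measured.
Dnmt1: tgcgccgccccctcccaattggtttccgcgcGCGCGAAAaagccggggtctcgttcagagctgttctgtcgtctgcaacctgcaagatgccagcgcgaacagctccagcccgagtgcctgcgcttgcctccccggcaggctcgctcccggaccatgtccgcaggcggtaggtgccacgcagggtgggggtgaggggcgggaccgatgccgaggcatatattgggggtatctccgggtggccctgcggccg
Uhrf1: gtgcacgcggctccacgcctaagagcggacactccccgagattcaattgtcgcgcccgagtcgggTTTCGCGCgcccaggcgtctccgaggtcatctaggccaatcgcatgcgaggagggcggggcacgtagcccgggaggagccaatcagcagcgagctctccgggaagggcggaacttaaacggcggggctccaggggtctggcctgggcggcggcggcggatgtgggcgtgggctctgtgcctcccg

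The Dnmt1 word lies at bases -219 to -212 and reads on the opposite strand, and the Uhrf1 word lies at -185 to -178. The third Dnmt1 start holds a second word at bases 34 to 41 after the start. Stretches of 30 bases around it (chr9:20952574-20952603, minus strand) and around the words of Ezh2 (chr6:47595009-47595038, minus strand) and Suz12 (chr11:79992876-79992905, plus strand) set the matches side by side.
Dnmt1: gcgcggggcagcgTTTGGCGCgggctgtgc
Ezh2: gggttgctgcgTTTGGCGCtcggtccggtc
Suz12: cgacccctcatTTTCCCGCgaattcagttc

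The Ezh2 word covers bases 4 to 11 after the start and the Suz12 word bases -219 to -212. Of 472 tested genes with an E2F word, 61.2% had a negative log2 fold change, compared with 48.6% of the 10237 tested genes that have a promoter window, and their medians were -0.066 and 0.0078. Groups did not overlap, with the lines labelled FoxO-null lower, in 14.2% of the genes with the word and 8.19% of those with a window. Leaving out the 10 members and the S-phase list described below, 461 genes with the word had a median of -0.059, and 60.3% of them were negative. The FoxO word GTAAACA, searched in the same way, was found in 3.65% of all windows and in 1 member, Eed, at bases -150 to -144. Of 327 tested genes with that word, 43.4% were negative, with a median of 0.052. These are matches of letters and say nothing of whether a factor is bound. The part of E2F or FoxO factors in the members' values was not tested.

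Eed, the subunit that binds the methylated histone tail and stimulates the enzyme, read 286, 290.0 and 234 in the lines labelled FoxO-null, against 393, 335 and 306 in the lines labelled wild-type (1448653_at). The mean was 269.9 ± 31.4 in the lines labelled FoxO-null and 345 ± 44.3 in the lines labelled wild-type (SD, n = 3 each), and the log2 fold change was -0.35 ± 0.14 (limma adjusted p 0.433). The gap between the groups was small, 290.0 in FoxO-null 2 against 306 in wild-type 3, and FoxO-null 3 was the lowest array. The other Eed probe set (1453830_at) lay at background on all 3 arrays labelled FoxO-null and on 2 labelled wild-type. Its log2 fold change was 0.70 ± 0.49, opposite in sign to the first set.

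Suz12, which holds the complex together, read 312, 359.9 and 291 on FoxO-null 1 to 3, against 415, 408 and 387 on wild-type 1 to 3 (1420021_s_at). The log2 fold change was -0.33 ± 0.12 (limma adjusted p 0.391) from means of 321 ± 35.4 in the lines labelled FoxO-null and 403 ± 14.6 in those labelled wild-type (SD, n = 3 each). Of its 6 probe sets 5 were negative, but in only 1 of them were the groups apart. The next brightest, 1427253_s_at and 1452364_at, gave -0.23 ± 0.15 and -0.22 ± 0.14 with overlapping groups. Wild-type 3 read 288 and 272 there, within the range of the lines labelled FoxO-null.

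Ezh2, the catalytic subunit, has 1 probe set (1416544_at). It read 583, 675 and 611 in the lines labelled FoxO-null, against 795, 669.8 and 732 in the lines labelled wild-type. FoxO-null 2 lay just above wild-type 2, so the groups overlapped. The log2 fold change was -0.23 ± 0.12 with a 95% interval of -0.48 to 0.022 (limma adjusted p 0.532).

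Ezh1 was weak. Its brightest probe set (1418290_a_at) read 63.4, 30.3 and 65.1 in the lines labelled FoxO-null, against 45.3, 37.4 and 57.2 in the lines labelled wild-type. FoxO-null 2 was the lowest of all 6 arrays and the other lines labelled FoxO-null the highest. The log2 fold change was 0.12 ± 0.31, with a 95% interval of -0.56 to 0.79 (limma adjusted p 0.934). All 4 Ezh1 probe sets were positive, from 0.12 to 0.63, and 2 of them lay at background on all arrays labelled FoxO-null. With the mean over its 4 probe sets, those at background included, in place of the brightest, Ezh1 was at 0.30 with the groups apart and the lines labelled FoxO-null higher (limma adjusted p 0.776).

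Ezh2 and Ezh1 are paralogs, so their difference was compared between the groups. The Ezh2 minus Ezh1 log2 value, centred on its 6-array mean, was -0.57, 0.58 and -0.53 on FoxO-null 1 to 3 and 0.32, 0.31 and -0.11 on wild-type 1 to 3. FoxO-null 2 was the highest of the 6, so the groups overlapped. The FoxO-null minus wild-type difference was -0.35 (two-sided exact permutation p 0.4, adjusted over 2 pairs 0.8), where 0.1 is the smallest p that 3 lines against 3 allow. With the mean over probe sets it was -0.53, at that smallest exact permutation p of 0.1.

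Bmi1 did not stand apart between the groups. Its brightest probe set (1417493_at) read 337, 382 and 348 in the lines labelled FoxO-null, against 451, 322 and 336 in the lines labelled wild-type. Wild-type 1 alone was high, and the other 5 arrays lay between 322 and 382. The log2 fold change was -0.041 ± 0.15, with a 95% interval of -0.36 to 0.28 (limma adjusted p 0.950); without wild-type 1 it was 0.11. The second probe set had the same high array, at 208 where the other arrays read 127 to 165.

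The de novo methyltransferases differed little in mean. Dnmt3a (1460324_at) read 219, 216 and 180.4 in the lines labelled FoxO-null, against 200.1, 225 and 164 in the lines labelled wild-type. Its log2 fold change was 0.067 ± 0.16, with a 95% interval of -0.28 to 0.41 (limma adjusted p 0.918). The third array of each group was its lowest, and the groups overlapped. Of its 5 probe sets 2 were negative, and in none were the groups apart.

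Dnmt3b (1418351_a_at) read 24.3, 34.6 and 27.1 in the lines labelled FoxO-null, against 23.9, 32.7 and 23.1 in the lines labelled wild-type. Every value was above its own array's background, but on FoxO-null 3 by only 27.1 to 26.9. The log2 fold change was 0.092 ± 0.33, with a 95% interval of -0.62 to 0.81 (limma adjusted p 0.950). The interval is the widest of the 10 genes, and a difference within it was not detectable at this signal. The Dnmt3b minus Dnmt3a value differed by 0.025 between the groups (two-sided exact permutation p 0.9, adjusted over 2 pairs 0.9).

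Of the 4 Tet1 probe sets, 1 was negative and the others positive. The brightest (1429448_s_at) read 154, 161 and 211 in the lines labelled FoxO-null, against 180.5, 244 and 151 in the lines labelled wild-type, which is -0.11 ± 0.19 on the log2 scale with overlapping groups (limma adjusted p 0.883). A dimmer one (1419896_at) read 69.4, 62.9 and 62.4 in the lines labelled FoxO-null, against 52.6, 50.4 and 53.2 in the lines labelled wild-type. There all lines labelled FoxO-null were higher, by 0.29 ± 0.23 (limma adjusted p 0.840 over 45037 probe sets). It was the single member probe set of 31 with the groups apart in that direction, and 6.95% of all probe sets were.

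Across the 31 probe sets, 18 were negative, compared with 46.5% of all probe sets. In 5 the groups were apart with the lines labelled FoxO-null lower (5.67% of all probe sets), and the same 5 had an unadjusted limma p under 0.05 (3.33% in that direction), with 0 of 31 higher (3.9%). They were both Uhrf1 sets and 1 each of Dnmt1, Eed and Suz12. The share past the adjusted threshold was 0 of 31, and 0.00222% of all probe sets passed. A whole group lay at background in 4 member probe sets, which had a median of 0.46, and the other 27 had a median of -0.12.

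**Figure D2:**
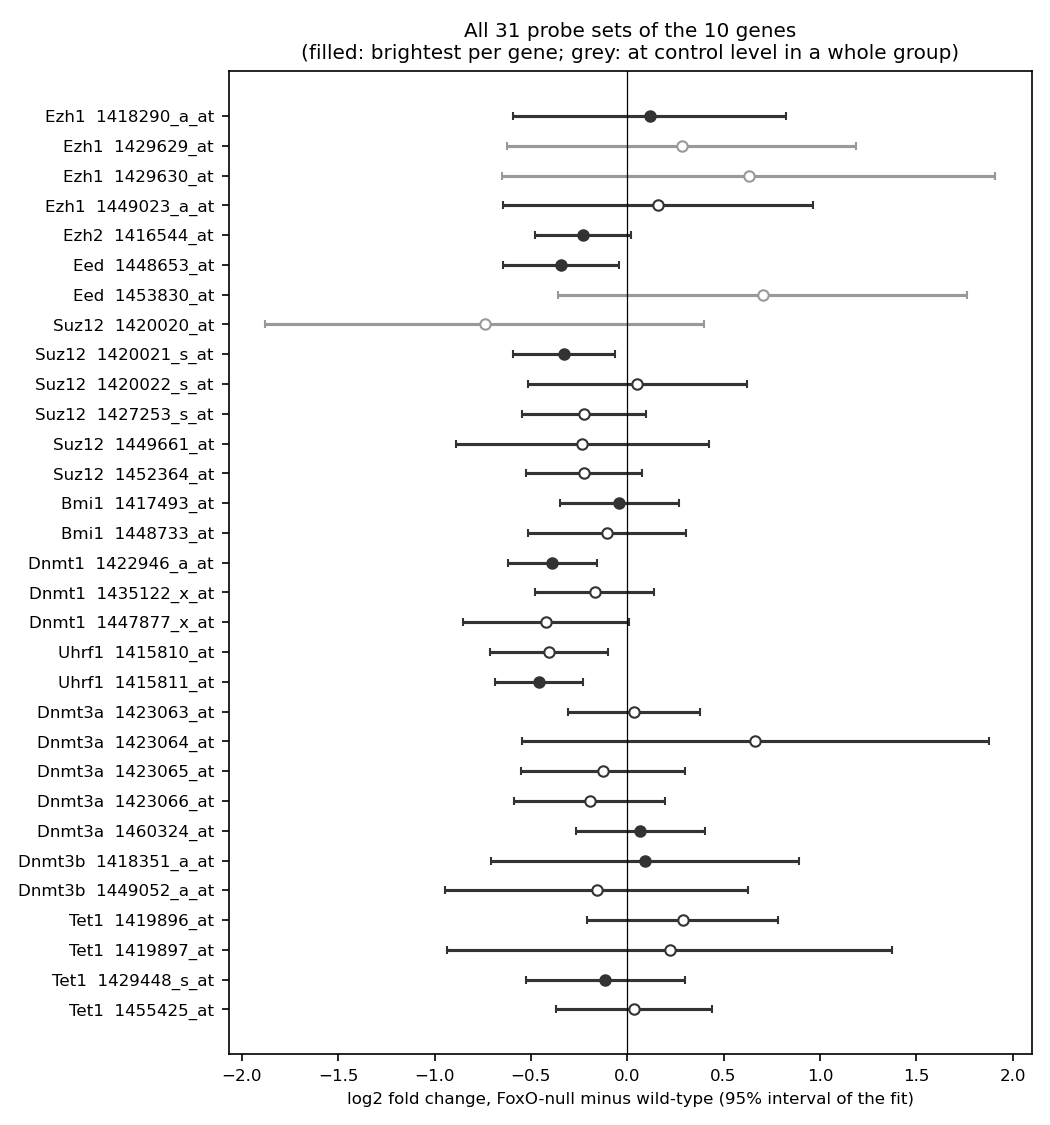
Difference in log2 signal, FoxO-null over wild-type, with the 95% interval of the limma fit, of all 31 member probe sets; filled points are the brightest set of each gene, and grey marks sets where a whole group lay at background. Intervals of both Uhrf1 sets and of 1 set each of Dnmt1, Eed and Suz12 lie below 0, and no interval lies above it.

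S-phase genes were, as a list, lower in the lines labelled FoxO-null, as the maintenance genes were. Of 22 tested genes of DNA synthesis, 22 had a negative log2 fold change (48.3% of all tested genes), with a median of -0.40. In limma 0 passed over all genes, and 15 were lower at an unadjusted p under 0.05 (4.94% of all tested genes). In 11 of the 22 the groups were apart with the lines labelled FoxO-null lower (7.96% of all tested genes). In the other 11, such as Mcm3 and Tyms, they overlapped. Tk1, the thymidine kinase of S phase, averaged 317 ± 23.2 in the lines labelled FoxO-null and 508 ± 59.2 in the lines labelled wild-type (log2 fold change -0.66 ± 0.13, limma adjusted p 0.131). Mcm5, a subunit of the replicative helicase, averaged 625 ± 46.6 in the lines labelled FoxO-null and 918 ± 110 in those labelled wild-type (-0.55 ± 0.12, limma adjusted p 0.179). Relative to the 6-array mean, the list's median log2 value was -0.34, -0.13 and -0.12 on FoxO-null 1 to 3 and 0.25, 0.10 and 0.27 on wild-type 1 to 3. On the same scale Uhrf1 stood at -0.27, -0.15 and -0.26, against 0.23 on each wild-type array, and Dnmt1 at -0.29, -0.19 and -0.11, against 0.16, 0.18 and 0.24. Eed had the same signs, at -0.085, -0.064 and -0.37 on FoxO-null 1 to 3 and 0.37, 0.14 and 0.013 on wild-type 1 to 3. The part of S-phase content in the members' values was not tested.

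**Figure D3:**
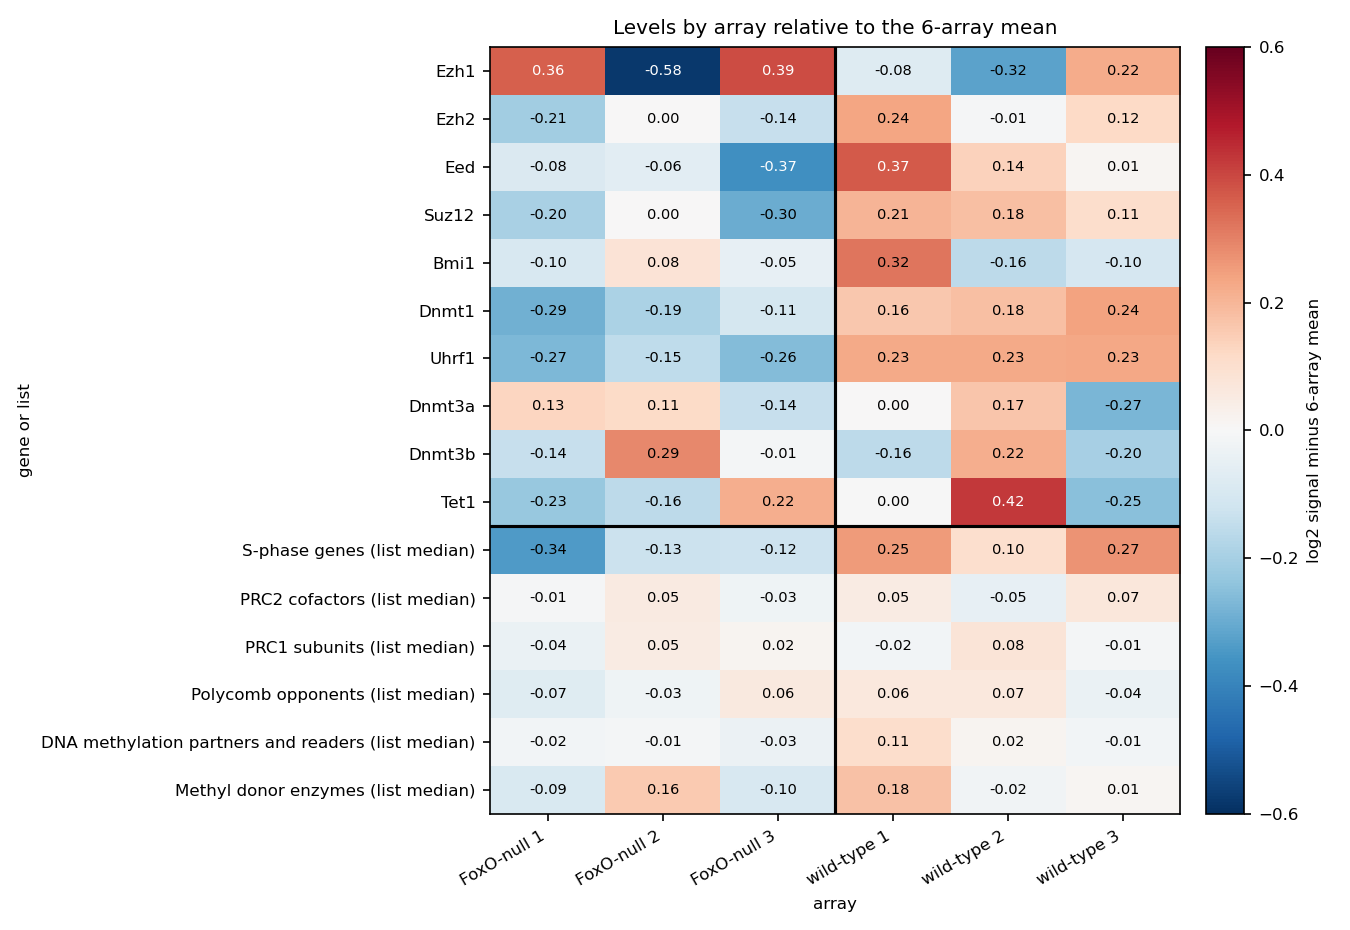
Log2 signal of the 10 genes, and the median of 6 companion lists, on each array relative to the mean of the 6 arrays (arrays labelled FoxO-null left, wild-type right). Uhrf1, Dnmt1, Eed and the S-phase list are negative on all 3 arrays labelled FoxO-null and positive on all 3 labelled wild-type. PRC1 and PRC2 cofactor medians lie at most 0.076 from 0.

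The remaining subunits of the same complexes showed no common direction. Of 7 PRC2 cofactors, 4 were lower and 3 higher, with 0 past the threshold and a median of -0.075. Jarid2, which helps recruit the complex to its targets, averaged 282 ± 26.0 in the lines labelled FoxO-null and 211 ± 24.8 in the lines labelled wild-type (log2 fold change 0.41 ± 0.14, limma adjusted p 0.346). The groups of Jarid2 were apart, and its sign was opposite to that of Eed and Suz12. Rbbp7, a histone-binding subunit, averaged 1566 ± 205 in the lines labelled FoxO-null and 1886 ± 153 in those labelled wild-type (-0.27 ± 0.12, limma adjusted p 0.477). Of 17 PRC1 subunits tested, 7 were lower and 10 higher, none passed, 0 had an unadjusted limma p under 0.05 and the median was 0.023. Ring1, a ubiquitin ligase subunit, was at -0.36 ± 0.18 and Cbx6, a chromodomain subunit, at -0.24 ± 0.13.

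The list of factors taken as opposing Polycomb held H3K27 demethylases, members of the H3K4 methyltransferase complexes, and Bap1, Asxl1 and Asxl2. Of its 16 genes 9 were lower and 7 higher, with none past the threshold. Kmt2c, an H3K4 methyltransferase, averaged 405 ± 28.3 in the lines labelled FoxO-null and 298 ± 11.2 in the lines labelled wild-type, with groups apart (log2 fold change 0.43 ± 0.12, limma adjusted p 0.240). Ash2l, a core subunit of the H3K4 methyltransferase complexes, was at -0.26 ± 0.14. Of 14 tested partners and readers of DNA methylation, 9 were lower and 5 higher, and 0 passed (0 also at an unadjusted limma p under 0.05). Trim28, a corepressor that protects imprinted methylation, was at -0.23 ± 0.11 and Mbd2, a reader of methylated CpG, at -0.27 ± 0.15.

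Among 6 enzymes around the methyl donor S-adenosylmethionine, 4 were lower and 2 higher. Ahcy, which clears the by-product that inhibits methyltransferases, read 596, 638 and 657 in the lines labelled FoxO-null, against 822, 824 and 827 in the lines labelled wild-type. The groups were apart, at -0.39 ± 0.10 on the log2 scale (limma adjusted p 0.230), close in size to Dnmt1. Ahcyl1, a relative of Ahcy with a regulatory role, was at 0.18 ± 0.10.

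Hox genes and the Cdkn2a locus are known to be silenced by Polycomb, and a set of germline genes by DNA methylation. Of 35 Hox and Cdkn2a-locus genes with a probe set, 18 lay at background on all arrays and 9 passed the filter on low signals, 4 lower and 5 higher. Hoxa9, a posterior patterning gene, read 13.6, 10.3 and 18.1 in the lines labelled FoxO-null, all at background, against 28.1, 51.2 and 32.1 in the lines labelled wild-type, so it was at least 1.39-fold lower (limma adjusted p 0.354). Hoxd8 read 28.1, 14.6 and 34.1 in the lines labelled FoxO-null, against 24.8, 3.07 and 10.1 in the lines labelled wild-type, with 3 of the 6 arrays at background, so no fold change is given. Of 18 germline genes that DNA methylation keeps silent, 10 lay at background on all arrays. Only 5 passed the filter, and all 5 had positive log2 fold changes, where 48.3% of all tested genes were negative. Of the 5, 0 were past the threshold and 0 at an unadjusted limma p under 0.05. Stag3 was at background on 3 of the 6 arrays, so no fold change is given. Rhox5, at background on 2 arrays, was at 0.023 ± 0.42. Sycp1 passed the filter only through the lines labelled FoxO-null, so its sign is no separate support. The background of the arrays, given above, was also higher in the lines labelled FoxO-null, and its part in these values was not tested. Sycp1, a meiotic chromosome protein, read 20.8, 19.8 and 29.1 in the lines labelled FoxO-null. It read 11.5, 9.36 and 13.3 in the lines labelled wild-type, all at background. FoxO-null 2 was at background too, so no fold change is given (limma adjusted p 0.573). Asz1, a germ cell gene above background on all 6 arrays, was at 0.50 ± 0.30.

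Imprinted genes, whose single active copy is set by inherited DNA methylation, were higher in 12 and lower in 6 of 18, with 0 past the threshold and a median of 0.12. Cdkn1c, an inhibitor of cyclin-dependent kinases, read 797, 910 and 783 in the lines labelled FoxO-null, against 231, 492 and 588 in the lines labelled wild-type, with groups apart (log2 fold change 1.02 ± 0.26, limma adjusted p 0.221). Wild-type 1 was far below the other wild-type lines. Rasgrf1, an exchange factor, read 26.7, 24.0 and 45.6 in the lines labelled FoxO-null, against 23.5, 5.70 and 10.5 in the lines labelled wild-type. FoxO-null 2 and wild-type 2 and 3 lay at background, so no fold change is given. It passed the filter on low signals only through the lines labelled FoxO-null.

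Summed markers of astrocytes, the oligodendrocyte lineage and neurons did not overlap between the groups, while those of neural stem cells, microglia, endothelium and fibroblasts did. The summed signal of 8 astrocyte markers was 6573 to 7601 in the lines labelled FoxO-null and 4550 to 5844 in the lines labelled wild-type, and 7 of the 8 were higher, such as Glul at 0.89 ± 0.13 (limma adjusted p 0.0504) and Aqp4 at 0.94 ± 0.19 (0.136). That of 9 oligodendrocyte lineage markers was 17160 to 17913 in the lines labelled FoxO-null and 13866 to 15421 in those labelled wild-type, with 6 of 8 tested higher and Cnp past the threshold at 0.87 ± 0.12 (limma adjusted p 0.0471). Neuron markers summed to 2036 to 2374 in the lines labelled FoxO-null and 2622 to 2980 in those labelled wild-type, with 6 of 8 lower, Gap43 at -0.74 ± 0.18 and Tubb3 at -0.64 ± 0.27. The difference in that sum rests mainly on Gap43, which averaged 777 ± 158 in the lines labelled FoxO-null and 1311 ± 306 in those labelled wild-type. Map2, the other bright marker, was at -0.0050 ± 0.12. Of 11 neural stem markers tested, 9 were higher and Hes5 passed at 1.41 ± 0.15 (limma adjusted p 0.0157). Their sum was 32218 to 35510 in the lines labelled FoxO-null and 25317 to 33521 in those labelled wild-type. Microglia markers lay at background on all arrays in 5 of 8, and summed to 109 to 133 in the lines labelled FoxO-null and 78.4 to 123 in the lines labelled wild-type. Endothelial markers, 2 of 6 at background throughout, summed to 81.7 to 156 in the lines labelled FoxO-null and 61.4 to 110.1 in those labelled wild-type. Kdr, at background on 1 array, was at -0.12 ± 0.38. Flt1 was at background on 4 of the 6 arrays, so no fold change is given. Fibroblast markers, 1 of 6 at background throughout, summed to 91.7 to 144 in the lines labelled FoxO-null and 77.1 to 157 in those labelled wild-type, with Col1a2 at -0.081 ± 0.37 and Col3a1 at background on all arrays labelled FoxO-null. Csf1r, a microglia receptor, was at -0.11 ± 0.24. The part of these cell types in the members' values was not tested.

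The genes closest in pattern were sought for the 3 members that varied most over the arrays, Ezh1, Tet1 and Uhrf1, among 12069 genes, by the root mean square difference of log2 values over 6 arrays after each gene's own mean was subtracted. Closest to Uhrf1 (SD 0.25) were Syngr2, a vesicle membrane protein, at 0.018, the mitotic kinesin Kif11 at 0.043 and the prostaglandin reductase Ptgr1 at 0.045, each with a log2 fold change between -0.51 and -0.46. Closest to Tet1 (SD 0.27) were the transporter Abcc4 at 0.049, Tmem245 at 0.059 and the dynein heavy chain Dync1h1 at 0.062. Closest to Ezh1 (SD 0.39) were Clip2 at 0.083, Gucy2g at 0.11 and Tcl1b1 at 0.11.

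**Figure D4:**
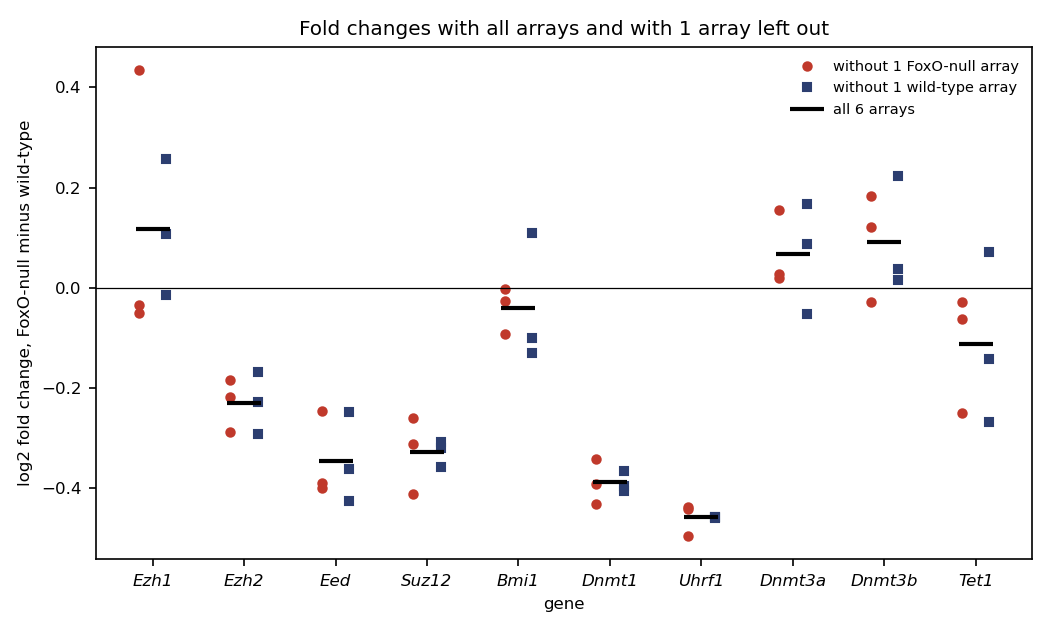
Difference in log2 signal, FoxO-null over wild-type, of the brightest probe set of each gene with all 6 arrays (bar) and with 1 array left out (circles, without a FoxO-null array; squares, without a wild-type array). Uhrf1 stayed between -0.50 and -0.44 and Dnmt1 between -0.43 and -0.34, while Ezh1, Bmi1, Dnmt3a, Dnmt3b and Tet1 crossed 0.

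Leaving out 1 array at a time kept the sign of Uhrf1, Dnmt1, Suz12, Eed and Ezh2 in all 6 fits. Ezh2 ranged from -0.29 to -0.17, Eed from -0.43 to -0.25 and Suz12 from -0.41 to -0.26. Ezh1 ranged from -0.051 to 0.43, with 0.43 without FoxO-null 2. No member passed in any of these fits, where the smallest limma adjusted p was 0.212, for Uhrf1 without wild-type 1. With arrays centred on their medians, the groups of Eed and Suz12 overlapped and those of Uhrf1 and Dnmt1 stayed apart. That left 2 of 10 members with the lines labelled FoxO-null lower, against 9.71% of all genes in that setting.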

How the data were processed

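The authors deposited MAS5 intensity signals for 45101 probe sets on 6 arrays, with MAS5 named in the submitters' processing notes and no version of it. A mean of 100 after trimming 2% at each end shows that each array had been scaled. All 6 value columns were used. Analysis used log2(signal + 5.94), where 5.94 is the 20th percentile over the table, so fold changes of weak genes are understated. Each gene took its brightest probe set, and genes under the 40th percentile of mean log2 (a signal of 16.2) were left out, which kept 12665 genes and all 10 members. Both this gene table and the unfiltered table of 45037 probe sets other than controls were fitted with limma 3.58.1 in R 4.3.3 (lmFit, eBayes with trend, no covariates, two-sided), with Benjamini-Hochberg adjustment over each whole table and a threshold of 0.05. Values of single probe sets other than the brightest come from the probe set fit. Pair contrasts used exact permutation. The labels call the lines independent. The small number of arrays limits the precision.

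The procedure was tested on simulated data. Members, companion lists and tests were chosen with earlier results of these data known. Genes named from a companion list were those past the threshold (up to 4) or otherwise the 2 of smallest p. The "at least" fold of Hoxa9 set the brighter group against the other group's background levels. Promoter windows are from RefSeq (GRCm38.p6). Alternatives were another offset (1 or 16), quantile normalization, median centring, no filter or one at the 60th percentile, the mean over probe sets, eBayes without trend, a replicate block and leaving out each array.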

Additional observations from a re-analysis of the deposited data

How the results depend on the processing

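No member passed under any of 15 alternatives, and limma adjusted p lay between 0.164 and 0.728 for Uhrf1. Of 149 member fold changes 138 kept their sign. That count includes eBayes without trend, the replicate block and both changes of the filter, which cannot alter a member's fold change. Signs there could not turn. Signs turned for Dnmt3a with median centring (-0.00070) and, with the mean over all probe sets, for Eed (0.18), Dnmt3b (-0.033) and Tet1 (0.11). With 1 array left out, Ezh1 ranged from -0.051 to 0.43, Bmi1 from -0.13 to 0.11, Dnmt3a from -0.052 to 0.17, Dnmt3b from -0.028 to 0.22 and Tet1 from -0.27 to 0.071. The Dnmt3b minus Dnmt3a change was -0.062 with quantile normalization, -0.12 with the mean over probe sets and -0.056 to 0.16 with 1 array left out; that of Ezh2 minus Ezh1 was -0.72 without FoxO-null 2 and -0.15 at its smallest, and -0.53 with the mean over probe sets (exact permutation p 0.1). Members with groups apart and lower numbered 2 with median centring or the mean over probe sets (Uhrf1 and Dnmt1 in both, with Ezh1 apart and higher under the mean, at 0.30) and 4 to 5 otherwise, a count added after seeing the data. Over all genes that share was 9.71% with median centring and 7.80% with the mean over probe sets. With 1 array left out it was 11.8% to 13.4%. A filter at the 60th percentile left no value for Dnmt3b. The 5 genes called in all became 0 with median centring (1048 at an unadjusted limma p under 0.05) or eBayes without trend (1116), and 1 with an offset of 1, quantile normalization, no filter or the mean over probe sets. With 1 array left out they ranged from 0 without FoxO-null 1 (819 unadjusted) to 13 without wild-type 3; there were 1 without FoxO-null 3 and 3 when either wild-type 1 or wild-type 2 was dropped. The 1 probe set called became 0 with an offset of 16, median centring, eBayes without trend or the replicate block (2754 to 3444 unadjusted), and 0 to 1 with 1 array left out. The cause was not tested. Same-numbered arrays deviated together at r of 0.023, 0.091 and 0.125 across genes, and arrays of unlike number at -0.156 to 0.078. Wild-type 1 correlated best with FoxO-null 2, at 0.078. The labels name no pairing, and whether same-numbered arrays share a batch was not tested. With the replicate block 6 genes and 0 members passed, with Uhrf1 at an adjusted p of 0.209 and the pair changes at exact sign-flip p of 0.5 and 0.75. Members near background (Ezh1, Dnmt3b) have intervals too wide to show a change.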
